A study of Mus musculus with 6 samples.

Results

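The genes described are those of the HGF-MET axis and of the membrane-bound serine proteases around it, in Hepa1-6 cells, an established mouse hepatoma line derived from the C57/L strain. They are the 10 rows of the deposited count and RPKM tables (reads on a gene scaled to its exon length and to the depth of the library) whose gene name is Hgf, Mst1, Met, Hgfac, Hpn, St14, Spint1, Spint2, Tmprss2 or Tmprss6, of 25078 genes in all. RNA-seq after depletion of ribosomal RNA gave 6 libraries. One came from parental cells without treatment (wt), 2 from cells transduced with a lentiviral scramble vector (scr 25-2 and scr 50-1) and 3 from cells transduced with a lentiviral vector for midnolin shRNA (knockdown 25-3, 50-2 and 50-5). Transduced cells were selected with puromycin, and single-cell-derived colonies were then isolated by limiting dilution, so that a library may stand for 1 clone. The labels do not name the clones or explain the numbers 25 and 50. In bulk RNA, fewer cells expressing a gene and less RNA per cell cannot be told apart. As nothing in the labels says that libraries of a group came from separate cultures, p-values measure only the spread between these libraries.

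HGF, hepatocyte growth factor, and MSP, the product of Mst1 (macrophage stimulating 1, not the kinase of the same nickname), are secreted as inactive single chains built like plasminogen, with a protease-like domain that has no protease activity. A serine protease cuts the chain, and the cut form of HGF activates the receptor tyrosine kinase MET while that of MSP activates the related receptor RON. HGFAC, a secreted protease of the plasma, and the membrane-anchored hepsin (Hpn) and matriptase (St14) make this cut, and the Kunitz-type inhibitors HAI-1 (Spint1) and HAI-2 (Spint2) block them. In the liver, HGF comes mainly from stellate and other mesenchymal cells and acts on hepatocytes, which themselves make MSP, HGFAC and hepsin. TMPRSS2 is a protease of epithelia best known for cutting viral spike proteins, and TMPRSS6 (matriptase-2) is a liver protease that lowers hepcidin by cutting hemojuvelin.

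Both ends of the axis were measured at very different levels. The receptor gene Met and the inhibitor gene Spint2 were well expressed in all 6 libraries, whereas Hgf and Spint1 had 0 counts in each and St14 had 1 count in knockdown 25-3 and 0 elsewhere. In the knockdown libraries Tmprss2 was 29.1-fold lower and Mst1 23.6-fold higher than in scr control libraries by mean RPKM. These were the 2 genes called of the 6 members tested, where 10.6% of all genes tested were called. Met was higher and Hgfac and Spint2 were lower in all 3 knockdown libraries than in both scr libraries without passing the test. Groups set apart in this way were seen in 50.2% of all genes tested. Hpn, and at a low level Tmprss6 (RPKM of at most 1.11), were highest in wt and scr 50-1. Both were near 0 in scr 25-2 as in the knockdown libraries.

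The count totals of the libraries ranged from 25586301 to 33119710. The targeted gene, Midn, had an RPKM of 60.5 in wt, was at 59.6 and 50.8 for scr 25-2 and 50-1, and stood at 20.3, 21.8 and 22.1 for knockdown 25-3, 50-2 and 50-5. Of 15 hepatocyte markers, 11 passed an RPKM of 1 in some library, and their summed RPKM was 5459 in wt, 3085 to 4176 in scr and 252 to 1060 in knockdown libraries. Albumin (Alb) was at an RPKM of 1877 to 2804 in wt and scr and 20.9 to 336 in knockdown libraries. Transferrin (Trf) was at 198 to 927 in wt and scr and 120 to 295 in knockdown libraries, so that its ranges overlapped. Apob, the apolipoprotein B gene, went the other way between scr (1.07 to 3.00) and knockdown libraries (4.37 to 52.2), with wt at 6.82. The transcription factor gene Hnf4a was at 11.04 to 33.9 in wt and scr and 29.6 to 65.5 in knockdown libraries. Serpina1a was at 0 counts throughout, and Asgr1 and Cps1 stayed under an RPKM of 1. Of 10 stellate and fibroblast markers, 3 passed an RPKM of 1 (Dcn at 409 to 1028, Pdgfra and Des), while the defining Col1a1, Col1a2, Acta2 and Lrat lay at an RPKM of 0 to 0.208. Of 8 endothelial markers, 1 (Pecam1, in wt) passed an RPKM of 1, with a summed level of 0.172 to 2.90. Of 9 leukocyte markers, 3 did, and their summed RPKM was 4.41 to 5.01 in wt and scr and 9.86 to 15.2 in knockdown libraries, mostly Cd68, with Ptprc at no more than 0.160. The summed RPKM of 6 cholangiocyte markers was 204 to 565 in wt and scr and 379 to 554 in knockdown libraries, mostly Spp1. Krt7 of this list was at 13.9 to 30.6 in wt and scr and 0.858 to 2.15 in knockdown libraries, and Krt19 was at no more than 0.179. The part of these shifts in the results below was not tested.

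The start regions of the genes that differed most between libraries are shown as context for the per-library values that follow. The sequences are the 250 bases upstream of the start site, from RefSeq on GRCm38.p6 (the same assembly as mm10), 5′ to 3′ on the strand of the gene, and capitals mark a CCAAT box (CCAAT) or a GC box (GGGCGG), on either strand. Mst1 lies at chr9:108080186-108080435 (plus strand), Hpn at chr7:31115327-31115576 (minus strand) and Tmprss2 at chr16:97611196-97611445 (minus strand).
Mst1: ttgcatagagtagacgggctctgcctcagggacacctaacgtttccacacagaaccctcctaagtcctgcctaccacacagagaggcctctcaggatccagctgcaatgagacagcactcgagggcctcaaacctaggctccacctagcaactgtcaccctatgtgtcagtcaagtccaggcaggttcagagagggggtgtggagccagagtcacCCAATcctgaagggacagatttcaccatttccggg
Hpn: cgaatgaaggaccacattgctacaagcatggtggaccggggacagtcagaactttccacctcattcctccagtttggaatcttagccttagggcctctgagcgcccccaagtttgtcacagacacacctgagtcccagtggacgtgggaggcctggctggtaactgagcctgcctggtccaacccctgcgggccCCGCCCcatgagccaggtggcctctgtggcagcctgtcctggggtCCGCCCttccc
Tmprss2: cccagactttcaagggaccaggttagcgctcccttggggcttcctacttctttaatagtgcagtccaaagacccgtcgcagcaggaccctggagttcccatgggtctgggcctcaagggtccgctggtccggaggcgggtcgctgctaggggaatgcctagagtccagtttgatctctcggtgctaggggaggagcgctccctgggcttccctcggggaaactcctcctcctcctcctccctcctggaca
The Mst1 window held 1 CCAAT box, the Hpn window 2 GC boxes, and the Tmprss2 window neither of them, and none of these windows held the TATA box letters TATAAA. Of all 32851 promoter windows of this length, 33.8% held a CCAAT box, 32.7% a GC box and 12.4% a TATA box on either strand. CpG dinucleotides numbered 4 for Mst1, 7 for Hpn and 10 for Tmprss2, against a median of 6 over all windows. For the other members with a window, they numbered 24 for Met, 24 for Spint2, 26 for Spint1, 4 for Hgf and 1 for Hgfac. The windows of Met, Spint1 and Spint2 also held 3 GC boxes each.

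Knockdown was compared with scr control across 11577 genes, those that exceeded an RPKM of 1 in 1 or more of these 5 libraries. Called genes had a false discovery rate (FDR) under 0.05 and changed 1.5-fold or more. Of the 10 members, 6 passed the filter and were tested (Mst1, Met, Hgfac, Hpn, Spint2 and Tmprss2), and 2 of these were called, 1 up-regulated and 1 down-regulated. Of all genes tested, 10.6% were called, 5.40% up-regulated and 5.23% down-regulated. The groups did not overlap in RPKM for 5 of the 6 members, a property shared by 50.2% of all genes tested. All 6 had an unadjusted p under 0.05 in the edgeR quasi-likelihood test, as did 31.5% of all genes. The median log2 fold change was -1.05 over the tested members and -0.0097 over all genes tested. Since Mst1 and Hpn passed the filter only through the group in which they were high, these counts do not stand for all 10 members.

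**Figure D1:**
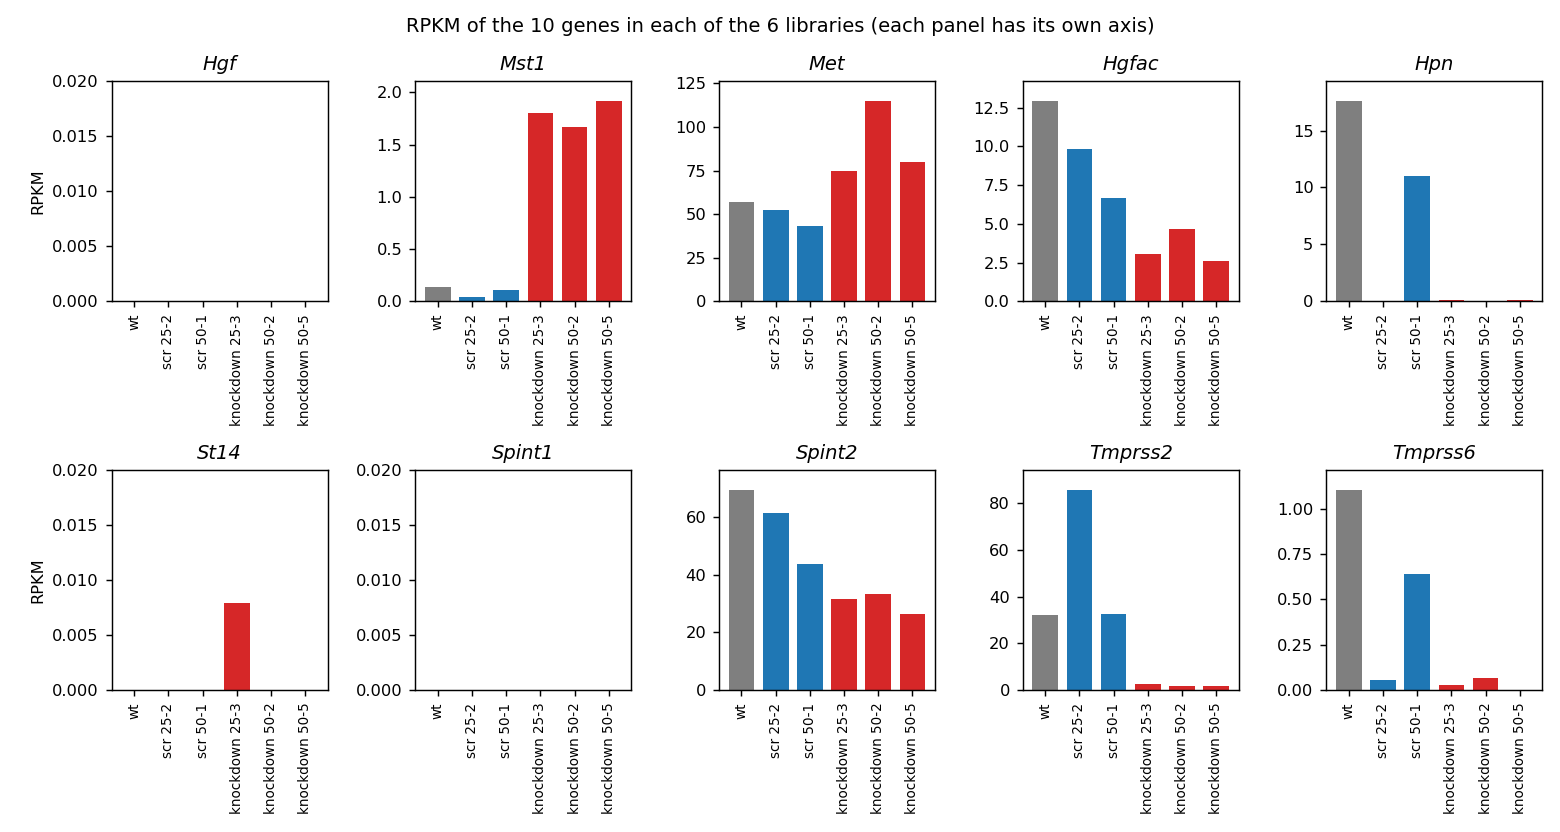
RPKM (vertical axis, separate scale in each panel) of the 10 genes in the wt (grey), scr (blue) and knockdown (red) libraries, 1 bar per library. Mst1 and Met were highest in the 3 knockdown libraries, Tmprss2, Hgfac and Spint2 were lowest there, and Hgf and Spint1 were at 0. Hpn and Tmprss6 were highest in wt and scr 50-1, Tmprss6 at a low level (RPKM of at most 1.11).

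Of the ligands, Hgf (chromosome 5 of mm10, 16553495 to 16619439) had 0 counts in every library. At these depths, 3 counts of Hgf would correspond to an RPKM of 0.0219 to 0.0277, so that a level above this was not detected, within counting error. Mst1 (chromosome 9, 108080436 to 108085027) had 8 counts in wt, 3 in scr 25-2 and 7 in scr 50-1. It had 130 counts in knockdown 25-3, 123 in 50-2 and 145 in 50-5. The knockdown libraries were thus close to one another and all far above the 3 others. In RPKM the mean was 0.0760 ± 0.0445 (SD, n = 2 libraries) in scr and 1.79 ± 0.126 (SD, n = 3) in knockdown libraries, a low level in either case. The log2 fold change was 4.52 with a standard error of 0.473, and the FDR by the Benjamini-Hochberg method was 0.00860 in edgeR's quasi-likelihood test. Resting on 3 and 7 counts in scr, the size of the change depended on each scr library, with a log2 fold change of 5.26 without scr 50-1 and 4.04 without scr 25-2. Without knockdown 50-2 the FDR was 0.0509, with a log2 fold change of 4.58. Without knockdown 50-5, 3.01% of all genes were called, and Mst1 and Tmprss2 were the 2 members among them (FDR 0.0401 and 0.0430).

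The Mst1 exons of GENCODE M21 share 195 bases with exons of Rnf123 on the opposite strand, and whether reads were counted by strand is not given. In the RefSeq coordinates of the deposited tables, these genes do not overlap. Rnf123, which encodes a ubiquitin ligase subunit, had an RPKM of 7.40 to 8.08 in scr and 5.99 to 6.75 in knockdown libraries. Apeh, the nearest tested gene at 387 bases, had 15.5 to 16.7 in scr and 13.1 to 13.6 in knockdown libraries, and neither neighbour was called. These neighbours, and those given for other members below, were named after their values were seen. The receptor of MSP, RON, is encoded by Mst1r, which had 0 to 3 counts in each of the 6 libraries and was named here for that role.

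Met (chromosome 6 of mm10, 17463957 to 17573980), the receptor of HGF, had an RPKM of 57.0 in wt, 52.4 in scr 25-2 and 43.3 in scr 50-1. It had 74.9 in knockdown 25-3, 115 in 50-2 and 79.6 in 50-5. Every knockdown library lay above the 3 others, with 50-2 standing well above its group. The means were 47.8 ± 6.42 (SD, n = 2) in scr and 89.8 ± 21.9 (SD, n = 3) in knockdown libraries. The log2 fold change of 0.89 (standard error 0.231) did not pass the test (FDR 0.0635, edgeR quasi-likelihood test). With wt as a further control, the FDR of Met was 0.0363 in the same test, and 14.1% of all genes tested were called. With any one of the 5 compared libraries left out, Met was not called, at a log2 fold change of 0.69 to 1.05 and an FDR of 0.0650 to 0.146. Cav2, a caveolin gene whose nearest end lies 174827 bases from Met, moved from 23.4 to 24.4 in scr to 50.9 to 81.5 in knockdown libraries, but its RPKM of 47.4 in wt was close to the latter. Among the 16 tested genes within 5 Mb of Met, the median log2 fold change was 0.24, with 2 called up-regulated and 0 down-regulated.

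Hgfac (chromosome 5 of mm10, 35041509 to 35048461), the plasma protease that activates both ligands, had an RPKM of 12.9 in wt, 9.84 in scr 25-2 and 6.64 in scr 50-1. It had 3.05, 4.65 and 2.57 in knockdown 25-3, 50-2 and 50-5. The knockdown libraries lay below the others, although scr 50-1 was only 1.43-fold above the highest of them. The means were 8.24 ± 2.26 (SD, n = 2) and 3.42 ± 1.09 (SD, n = 3), and the log2 fold change of -1.28, whose standard error was 0.326, had an FDR of 0.0609 in the edgeR quasi-likelihood test. With wt among the controls, the log2 fold change was -1.52 and the FDR 0.0238 in the same test. With any one of the 5 compared libraries left out, the log2 fold change was between -1.55 and -0.95 and the FDR between 0.0508 and 0.186, the smallest change being that without scr 25-2.

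Hpn (chromosome 7 of mm10, 31098725 to 31115326), the gene of hepsin, had 918 counts in wt and 629 in scr 50-1. It had 2 counts in scr 25-2 and 7, 2 and 6 in knockdown 25-3, 50-2 and 50-5. The 2 scr libraries therefore stood at opposite ends, at an RPKM of 0.0340 and 11.03, and the knockdown libraries (0.0309 to 0.111) overlapped with scr 25-2. Among the 11062 genes with an RPKM over 1 in either scr library, 28.1% differed by at least 1.5-fold between these libraries, and 0.515% differed by as much as Hpn or more. The log2 fold change of -6.13 had a standard error of 1.87 and an FDR of 0.0887 in the edgeR quasi-likelihood test. It rested on scr 50-1 alone: without this library Hpn did not reach the filter, and without scr 25-2 the log2 fold change was -7.12 (FDR 0.00253, same test), with 1 scr library assumed to vary like the knockdown libraries. With wt added to the controls the FDR was 0.0415.

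Gramd1a, 14801 bases from Hpn, was highest in scr 50-1 (16.7) and lay between 6.80 and 8.53 in the 5 other libraries. Over the 123 tested genes within 5 Mb of Hpn, which include Spint2 at 1.84 Mb, the median log2 fold change was 0.043.

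Tmprss6 (chromosome 15 of mm10, 78439667 to 78468634), at low counts, was split in the same way as Hpn. It had 92 counts in wt and 58 in scr 50-1, against 5, 3, 7 and 0 in scr 25-2 and knockdown 25-3, 50-2 and 50-5. It was under an RPKM of 1 in every compared library, so it was not tested with the other members. In the same test without the filter, its log2 fold change was -3.38 with an FDR of 0.157, and with wt added to the controls the FDR was 0.0637. The matriptase gene St14 (chromosome 9, 31088590 to 31131799) was at most at 1 count per library, where 3 counts would correspond to an RPKM of 0.0226 to 0.0286.

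Tmprss2 (chromosome 16 of mm10, 97564682 to 97611195) had 2653 counts in wt, 7973 in scr 25-2 and 2944 in scr 50-1. It had 276, 175 and 170 counts in knockdown 25-3, 50-2 and 50-5. In RPKM this was 32.2 in wt, 85.7 and 32.7 in the scr libraries, against 2.76, 1.71 and 1.63 after knockdown. Even the lower scr library was 11.8-fold above the highest knockdown library, although scr 25-2 was 2.62-fold above scr 50-1. With a log2 fold change of -4.88 and a standard error of 0.488, the FDR was 0.00777 (edgeR quasi-likelihood test), and wt, which did not enter the test, lay with scr 50-1. Without scr 25-2 the log2 fold change was -4.00 and without scr 50-1 it was -5.41. Without knockdown 50-2 the FDR of Tmprss2 was 0.0538 in the same test, with a log2 fold change of -4.76.

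Near Tmprss2, genes were called mostly in the same direction. Of the 25 tested genes within 5 Mb, 12 were called down-regulated and 1 up-regulated, and their median log2 fold change was -0.80. Within 2 Mb, 7 of 14 were called, all down-regulated, with a median of -0.95. Mx1, an interferon-induced GTPase gene 101776 bases away, had an RPKM of 12.5 in scr 50-1, 3.80 in wt and 0.445 in scr 25-2, and 0.0319 to 0.104 in knockdown libraries, with a log2 fold change of -6.52 (FDR 0.0434, edgeR quasi-likelihood test). Mx2, at 3781 bases, was at 2.56 in scr 50-1, 0.449 in scr 25-2 and 0.0511 to 0.249 in knockdown libraries and was not called. In these 2 genes scr 50-1 was the higher scr library, whereas in Tmprss2 scr 25-2 was. Prdm15, at 180272 bases, was at 4.57 and 4.70 in scr, against 2.43 to 3.03 after knockdown, and was called (log2 fold change -0.80). How much of the difference in Tmprss2 moved with its neighbourhood was not tested.

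**Figure D2:**
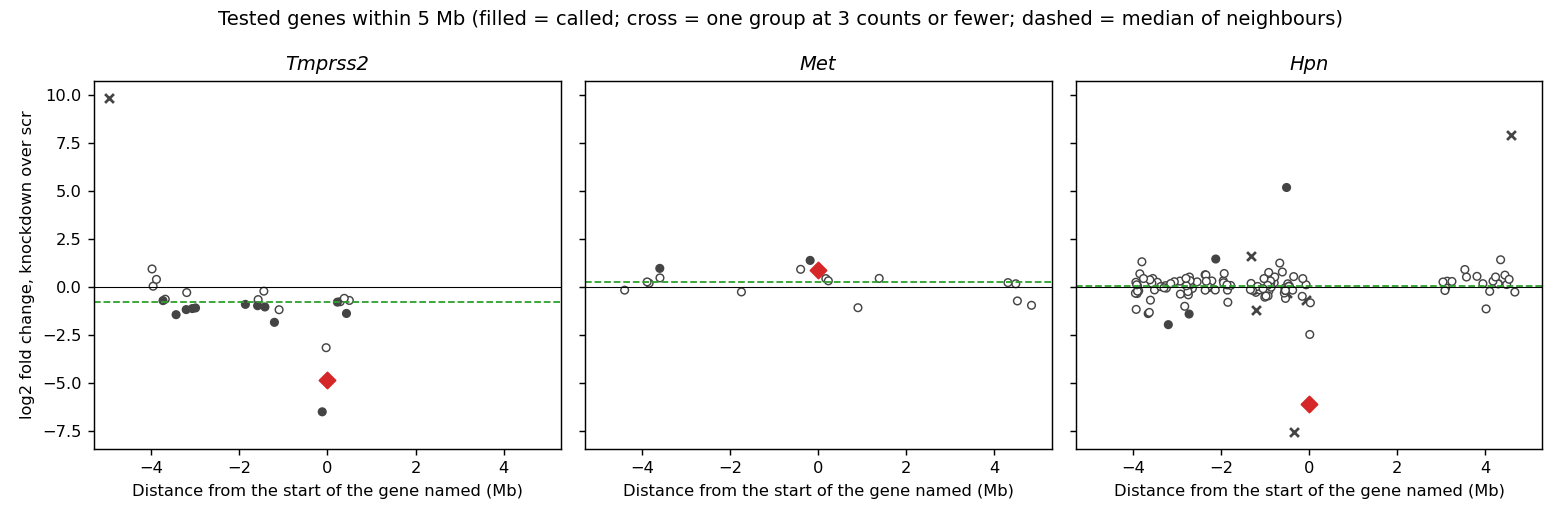
Log2 fold change of knockdown over scr (vertical axis) for the tested genes within 5 Mb of Tmprss2, Met and Hpn, by the distance of their start in Mb (horizontal axis). Diamonds are the member, filled circles called genes, open circles genes not called, crosses genes with one group at 3 counts or fewer, whose fitted values are not bounds, and dashed lines the median of the neighbours, which was -0.80 for Tmprss2, 0.24 for Met and 0.043 for Hpn.

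Of the inhibitors, Spint1 (chromosome 2 of mm10, 119237360 to 119249513) had 0 counts in all 6 libraries, where 3 counts would correspond to an RPKM of 0.0399 to 0.0506. Spint2 (chromosome 7, 29256330 to 29281977) had an RPKM of 69.5 in wt, 61.4 in scr 25-2 and 43.8 in scr 50-1. It had 31.6, 33.1 and 26.4 in knockdown 25-3, 50-2 and 50-5. The knockdown libraries were all lower, with scr 50-1 at 1.32-fold of the highest. The means were 52.6 ± 12.4 (SD, n = 2) and 30.4 ± 3.53 (SD, n = 3). The log2 fold change of -0.81 (standard error 0.193) missed the threshold at an FDR of 0.0534 in the edgeR quasi-likelihood test. Spint2 was called without scr 50-1 (log2 fold change -1.03, FDR 0.0265) and with wt among the controls (-0.94, FDR 0.0216). It was not called without scr 25-2 (-0.53, FDR 0.0944) or without any one of the knockdown libraries (FDR 0.145 to 0.157, edgeR quasi-likelihood test). The planned ratios of protease to inhibitor each held St14 or Spint1, and as neither of these reached the minimum of 10 counts set for a ratio, no ratio is given.

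**Figure D3:**
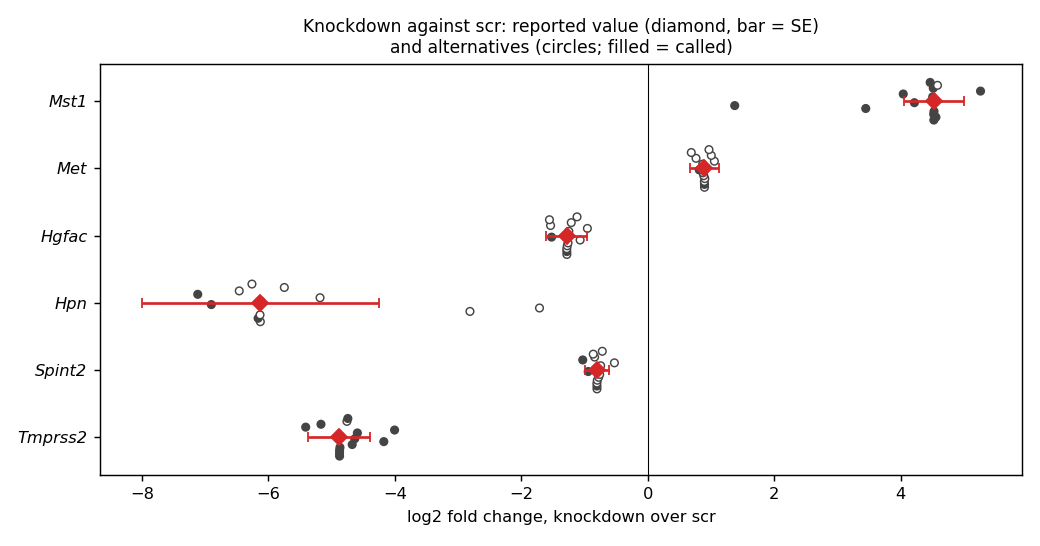
Log2 fold change of knockdown over scr (horizontal axis) for the 6 members tested. Diamonds with bars are the values reported with their standard error, and circles the same value under up to 14 alternatives of test, filter and libraries, filled where the gene was called. No circle crossed 0, which was nearly fixed in advance for the 5 members whose groups did not overlap. For Mst1 and Tmprss2 1 circle each is open.

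Ordered by level per length (RPKM), wt had Spint2 (69.5), Met (57.0), Tmprss2 (32.2), Hpn (17.6) and Hgfac (12.9), then Tmprss6 (1.11) and Mst1 (0.134). In scr control libraries, Tmprss2 (32.7 to 85.7), Spint2 (43.8 to 61.4) and Met (43.3 to 52.4) overlapped and did not differ beyond their spread. In knockdown libraries Met stood first at 74.9 to 115, apart from Spint2 at 26.4 to 33.1. Hgfac (2.57 to 4.65) and Tmprss2 (1.63 to 2.76) overlapped there, as did Tmprss2 and Mst1 (1.67 to 1.92). The wt library exceeded both scr libraries in Spint2, Hgfac, Hpn, Tmprss6, Met and Mst1, but by at least 1.5-fold over both of them only in Hpn and Tmprss6, which lay 1.59-fold and 1.73-fold above scr 50-1. Such a distance of wt from both scr libraries was seen in 7.82% of 11211 genes.

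The genes whose log2(RPKM + 1) ran most closely with a member over the 6 libraries were sought among 10890 genes, for the 3 members with the largest log2 fold changes. For Hpn these were Slco1b2, a hepatocyte transporter gene (Pearson's r = 0.996), and Ambp, which encodes alpha-1-microglobulin and the Kunitz inhibitor bikunin (r = 0.994). Ambp had an RPKM of 59.4 in wt and 56.5 in scr 50-1, against 0.402 in scr 25-2 and 0 to 0.200 in knockdown libraries. For Tmprss2 they were Atg12 (r = 0.998) and Lmf1 (r = 0.997), and for Mst1 they were Glrp1 (r = 0.999) and Maea (r = 0.998). Glrp1 had an RPKM of 0.0868 to 0.353 in wt and scr and 17.0 to 24.5 in knockdown libraries. With only 6 libraries and so many genes, values of r near 1 are a description.

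Beyond the members, 5 lists of related genes were read from the same fit. Of 36 other HGF-MET pathway genes tested, 4 were up-regulated, 3 were down-regulated and 29 were not called. The share called was 19.4%, and the median log2 fold change was 0.034. Over all genes tested, 10.6% were called and the median was -0.0097. Whether the list differs from all genes was not tested. Pik3r1, a regulatory subunit of the PI3-kinase that docks to the MET complex, rose with a log2 fold change of 1.39 (FDR 0.0378), and Crk, an adaptor, with 0.75 (FDR 0.0204, edgeR quasi-likelihood test). Cd44, a surface glycoprotein of which some isoforms serve as co-receptors of MET, was at 81.4 ± 0.0781 in scr (SD, n = 2) and rose to 188 ± 34.3 (SD, n = 3) with a log2 fold change of 1.19 (FDR 0.0190, same test). F11 (coagulation factor XI) fell by 2.63 on the log2 scale (FDR 0.0180), Timp3, an inhibitor of the sheddases that release the MET ectodomain, with a log2 fold change of -1.34 (FDR 0.0242), and Plat, the tissue plasminogen activator, by 0.88 (FDR 0.0432, same test). The most abundant genes of the list in scr, Plxnb2 and Akt1, had log2 fold changes of -0.56 and -0.48 and were not called. Plau, the urokinase gene, had 0 or 1 count per library and was named after its values were seen.

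Of 21 other membrane-anchored serine protease genes in the tables, 2 passed the filter. Tmprss11f, of the airway-trypsin-like subfamily, had 9 and 8 counts in scr and 42 in wt, against 369, 676 and 610 for knockdown 25-3, 50-2 and 50-5, and it was called at 5.83 ± 0.415 (log2 fold change and its standard error, FDR 0.00508, edgeR quasi-likelihood test). For Prss22 the scr libraries had 26 and 18 counts, wt 49 and the knockdown libraries 196, 390 and 79, and it was not called (log2 fold change 3.16, FDR 0.0554). Among the others, Prss8, the gene of prostasin, was at an RPKM of 0.0650 to 0.321, and 5 genes had 0 counts in all libraries. Tmprss11f and Prss22 passed the filter only through the knockdown libraries, in which they were high. The call of Tmprss11f therefore does not stand for the class.

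Of 17 substrates and partners of the proteases, 4 were tested and 1, Muc1, a membrane mucin gene, was called, with 49 and 85 counts in scr, 6 in wt and 5 to 7 in knockdown libraries (log2 fold change -3.63, FDR 0.0113, edgeR quasi-likelihood test). As wt lay with the knockdown libraries in this gene, the scr libraries were the ones set apart. Muc1 passed the filter only through scr 50-1, at an RPKM of 1.33, so that its call does not stand for the list. Of all genes tested, 10.6% were called. Neo1, the co-receptor of hemojuvelin, and Hfe were not called, with log2 fold changes of 0.28 and -1.04. Of 18 other serine protease inhibitors, 5 were tested. App, whose longer isoforms carry a Kunitz domain, had a mean RPKM of 184 ± 15.6 in the 2 scr libraries (SD) and fell to 57.6 ± 12.5 in the 3 knockdown libraries, a log2 fold change of -1.69 (FDR 0.0125, same test), whereas its relative Aplp2 was not called (-0.51). Serpina1b had 0 counts in both scr libraries and 13 in wt, against 105, 61 and 20 after knockdown. Against 3 counts per scr library this is at least 18.7-fold higher by mean RPKM (FDR 0.0384, same test), but near-identical copies of this gene make its counts uncertain. Serpina1b also passed the filter only through the knockdown libraries, in which it was high.

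Of 16 ERK feedback and target genes tested, 1 was up-regulated, 2 were down-regulated and 13 were not called. The share called was 18.75%, against 10.6% of all genes tested. The median log2 fold change was -0.056, against -0.0097 over all genes tested, and the difference was not tested. Fosl1, an AP-1 transcription factor gene, was at 13.8 ± 1.79 in scr (SD, n = 2) and rose to 54.5 ± 10.5 (SD, n = 3) with a log2 fold change of 1.96 (FDR 0.0101, edgeR quasi-likelihood test). Spry4, an inhibitor of receptor tyrosine kinase signaling, fell by 0.92 on the log2 scale (FDR 0.0196) and Phlda1 by 0.64 (FDR 0.0407, same test). The most abundant genes of this list in scr, Ccnd1 and Dusp6, had log2 fold changes of 0.033 and -0.65 and were not called, and their scr libraries were far apart, at 294 and 527 for Ccnd1 and 423 and 187 for Dusp6.

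**Figure D4:**
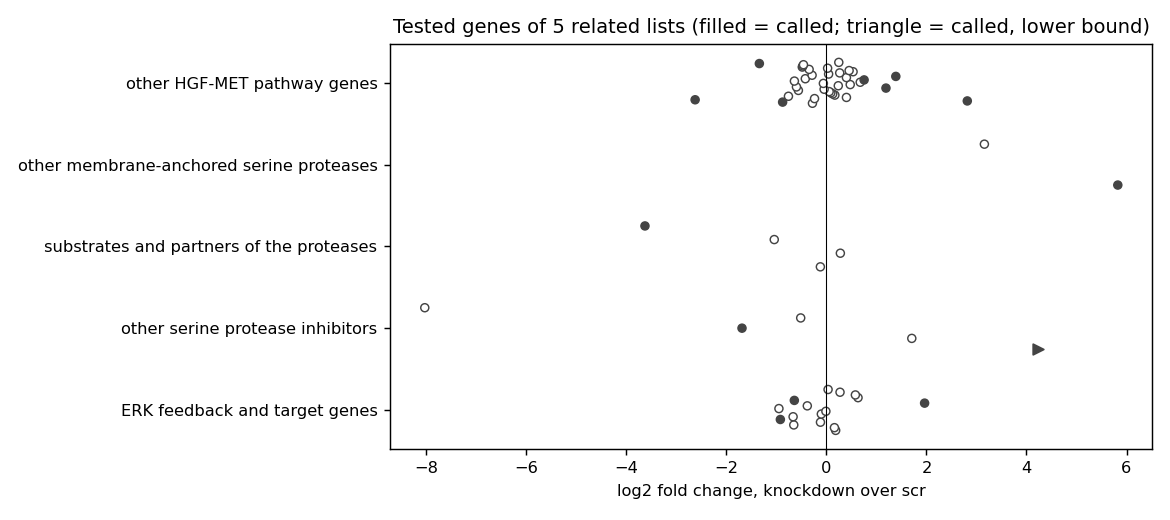
Log2 fold change of knockdown over scr (horizontal axis) for the tested genes of 5 related lists, 1 symbol per gene, filled where called. The triangle is the lower bound for Serpina1b, and the called genes lie on both sides of 0 in 3 of the lists.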

How the data were processed

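RNA of 6 Hepa1-6 libraries was sequenced after ribosomal depletion. Single-end reads were mapped by the authors with TopHat2 on mm10 and assigned to RefSeq genes with HTSeq (version 0.6.1p1 in the submitters' processing notes, another in the paper's methods), and these counts were deposited without normalization. The strand setting is not given in the sources used here. The deposited RPKM values were computed by the authors with TMM-scaled library sizes from edgeR; here they equalled the count per kilobase of exon divided by 1 constant per library within rounding. Every library column was matched by name, and 0 were left unmatched.

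Counts of 3 knockdown and 2 scr libraries were tested with edgeR 4.0.16 in R 4.3.3 (quasi-likelihood test, TMM, Benjamini-Hochberg adjustment over all genes tested), after removal of genes that never exceeded an RPKM of 1 in the libraries compared. An FDR under 0.05 with a 1.5-fold change, as in the paper, made a call. The paper compares clones sh1 and sh2, which the labels do not identify, so all libraries labelled as knockdown were used. The size of a log2 fold change over the root of its F statistic was taken as its standard error. Total counts of 25586301 to 33119710 leave counting error small beside the biological coefficient of variation of 0.272, except for genes with few counts, and intervals and floors cover counting error only. A floor of 3 counts was used for genes at 0.

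The members and lists were chosen with earlier results of these data known. Named list genes were the 3 called genes with the largest change in each direction, and the 2 with the highest scr mean. Crk, Mst1r, Plau, the marker genes, the genes of the closing section and the neighbours were named outside this rule. Some genes that the rule names are not reported here. Alternatives used DESeq2 1.42.0, limma 3.58.1 after adding 0.1 or 1 to RPKM on the log2 scale, other filters and size factors, wt, a block, and each library left out. Python 3.11.15 with matplotlib 3.10.9 drew the figures.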

Additional observations from a re-analysis of the deposited data

How the results depend on the processing

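The direction of the 6 members tested was the same in every alternative in which they passed the filter. For 5 of them the groups did not overlap, so that refits of the same libraries could hardly change it. The constant direction is therefore no further support. Mst1 and Tmprss2 were each called in 13 of 14 alternatives, the exception being the fit without knockdown 50-2. Met and Hgfac were called in 2 of 14, Spint2 in 3 of 14 and Hpn in 3 of 12. The DESeq2 Wald test called all 6 tested members and 2322 of 11577 genes. With wt among the controls 6 of 7 tested members were called, beside 14.1% of all genes. Tmprss6 was not called there (FDR 0.0637, edgeR quasi-likelihood test). Mst1 and Hpn passed the filter only through the group in which they were high, so these counts do not stand for all members. With 1 knockdown library left out, 0 to 2 members were called. Over all genes, the main fit called 1230, and the fits with 1 knockdown library left out called 131 to 346. With the 25 or 50 of the labels as a replicate block 807 genes were called, and 2 members (Mst1 and Tmprss2), so that no member's call changed with it. Knockdown and scr libraries that share 25 or 50 deviated together weakly or not at all (r of deviations from the group means -0.0388 to 0.0665), so the numbers are not shown to pair the libraries. Without knockdown 50-2, the largest drop, 131 genes were called, without knockdown 25-3 259, without knockdown 50-5 346 and without scr 25-2 2273. The cause was not tested. In limma with pseudocounts of 0.1 and 1 on RPKM, which changed the test and the scale together, the log2 fold change of Mst1 was 3.45 and 1.38 and that of Hpn -2.81 and -1.71. With 2 scr libraries, differences below about the distance between them cannot be resolved for Hpn and Tmprss6.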

Other observations

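Other genes were split between the scr libraries like Hpn and Tmprss6. After these values were seen, genes were counted that had at least 50 counts in wt and in scr 50-1 and at most 10 in scr 25-2 and in each knockdown library. There were 11 of them, Hpn and Tmprss6 included, and the reverse pattern, with scr 25-2 in the place of scr 50-1, was met by 1 gene. These limits leave out genes with a like split at higher counts, such as Ambp, with 1961 counts in wt and 2041 in scr 50-1 against 15 in scr 25-2 and 0 to 8 in knockdown libraries. Besides the members, they included Akr1c6, an aldo-keto reductase gene of the liver (277 counts in wt, 58 in scr 50-1 and 1 to 3 elsewhere), Scara5, a ferritin receptor gene (74 in wt, 218 in scr 50-1 and 0 to 2 elsewhere), and Prlr, the prolactin receptor gene (64 in wt, 98 in scr 50-1 and 2 to 6 elsewhere). Dmkn, which lies 0.335 Mb from Hpn on chromosome 7, had 225 counts in wt, 602 in scr 50-1 and 1 to 3 elsewhere.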
